A study of Homo sapiens with 8 samples.

Results

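Actin works in the nucleus as well as in the cytoskeleton, and the genes described here are those that carry it across the nuclear envelope, modify it there, or encode the actin-related proteins that sit with actin in chromatin remodelling complexes. They were chosen by name from the deposited expression table, and all 10 named genes, of 22504 in the table, had a row. IPO9 encodes importin 9, which carries actin into the nucleus together with cofilin, and XPO6 encodes exportin 6, which carries actin bound to profilin out. MICAL2 encodes a nuclear monooxygenase that oxidises actin methionines and so takes filaments apart. ACTL6A, ACTR5, ACTR6 and ACTR8 encode nuclear actin-related proteins, and INO80, SMARCA4 and SMARCA2 encode the motor ATPases of the INO80 and BAF remodelling complexes, in which such proteins bind next to actin. The data do not measure actin protein or its place in the cell.

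The cells were U2OS, an established human osteosarcoma line, and their polyadenylated RNA was sequenced. The 4 groups were G13R cells given serum, G13R cells in normal growth, GFP cells given serum and GFP cells in normal growth, each with 2 libraries. G13R cells overexpressed an actin with the G13R substitution, known as a mutant that polymerises poorly, and GFP cells expressed green fluorescent protein as the control. The labels name neither the actin gene mutated, the promoter or clone used, the length of the serum treatment nor any starvation before it. Nothing in the labels ties the 2 libraries of a group to separate cultures, so the p-values measure the spread between libraries, which may be technical. Levels are FPKM, fragments per kilobase of transcript scaled to the mapped fragments of each library. The errors given beside FPKM are SD (n = 2 libraries), and those beside log2 fold changes are SE on the log2(FPKM + 1) scale. A gene is said to have risen or fallen where limma's Benjamini-Hochberg adjusted p over 12996 expressed genes was under 0.05.

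Between 12065 and 12568 genes reached 1 FPKM per library. ACTB, the gene of beta-actin, checked the labels of the 2 kinds of cell. It averaged 8313 ± 514 FPKM in G13R serum and 10628 ± 873 FPKM in G13R normal libraries, against 2579 ± 50.8 FPKM in GFP serum and 2690 ± 125 FPKM in GFP normal libraries. After serum it fell in G13R cells (-0.35 ± 0.08, limma adjusted p = 0.0184). In GFP cells its serum and normal libraries overlapped (limma adjusted p = 0.593), so ACTB does not check the serum and normal labels. Whether transcripts of the introduced actin were counted in ACTB was not tested. GFP serum replicate 2 stood apart from the other libraries, at 44.7 on the first principal component against 26.0 for GFP serum replicate 1, and 186 genes differed over 2-fold between these 2 libraries against 87 to 102 in the other groups. Of 9 osteoblast lineage markers 6 were expressed, among them SPARC, COL1A1, ALPL and RUNX2, while SP7, COL1A2 and IBSP were at or near 0. Their sum was 565 to 629 FPKM in G13R serum and 434 to 479 FPKM in G13R normal libraries, and 747 to 907 FPKM in GFP serum and 580 to 666 FPKM in GFP normal libraries. SPARC made up most of each sum. TNFRSF11B had 51.9 to 87.8 FPKM in serum and 5.36 to 11.3 FPKM in normal libraries. The markers did not all move together: COL1A1 had 30.4 and 29.5 FPKM in G13R serum, against 34.1 and 37.1 FPKM in G13R normal libraries. Of 6 epithelial markers 4 were expressed, and their summed level was 13.7 to 14.2 FPKM in G13R serum and 7.52 to 10.4 FPKM in G13R normal libraries, and 18.0 to 19.1 FPKM in GFP serum and 7.30 to 9.82 FPKM in GFP normal libraries. CLDN4 made up most of that sum in the 4 serum libraries only. The 6 leukocyte markers summed to 11.3 to 14.9 FPKM over all libraries, mostly CD68, the 5 neural markers to 2.87 to 5.24 FPKM, and the 5 endothelial markers to 0.575 to 1.09 FPKM, with PECAM1 at 0 in every library. The part of these markers in the results was not tested.

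All 10 genes were expressed in every library and passed the filter on low values. Per length, ACTL6A was the highest of them, with a mean of 76.8 FPKM over the 8 libraries, above 91.2% of the expressed genes. MICAL2 averaged 56.4 FPKM and XPO6 52.5 FPKM, SMARCA4 29.5 FPKM and IPO9 25.8 FPKM. The remaining actin-related proteins and ATPases were lower, with ACTR8 at 13.1 FPKM, ACTR5 at 10.7 FPKM, INO80 at 9.54 FPKM, SMARCA2 at 8.88 FPKM and ACTR6 at 8.004 FPKM. The highest library exceeded the lowest by 1.28 times for SMARCA4 and by 2.19 times for SMARCA2, with the other 8 genes in between.

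**Figure D1:**
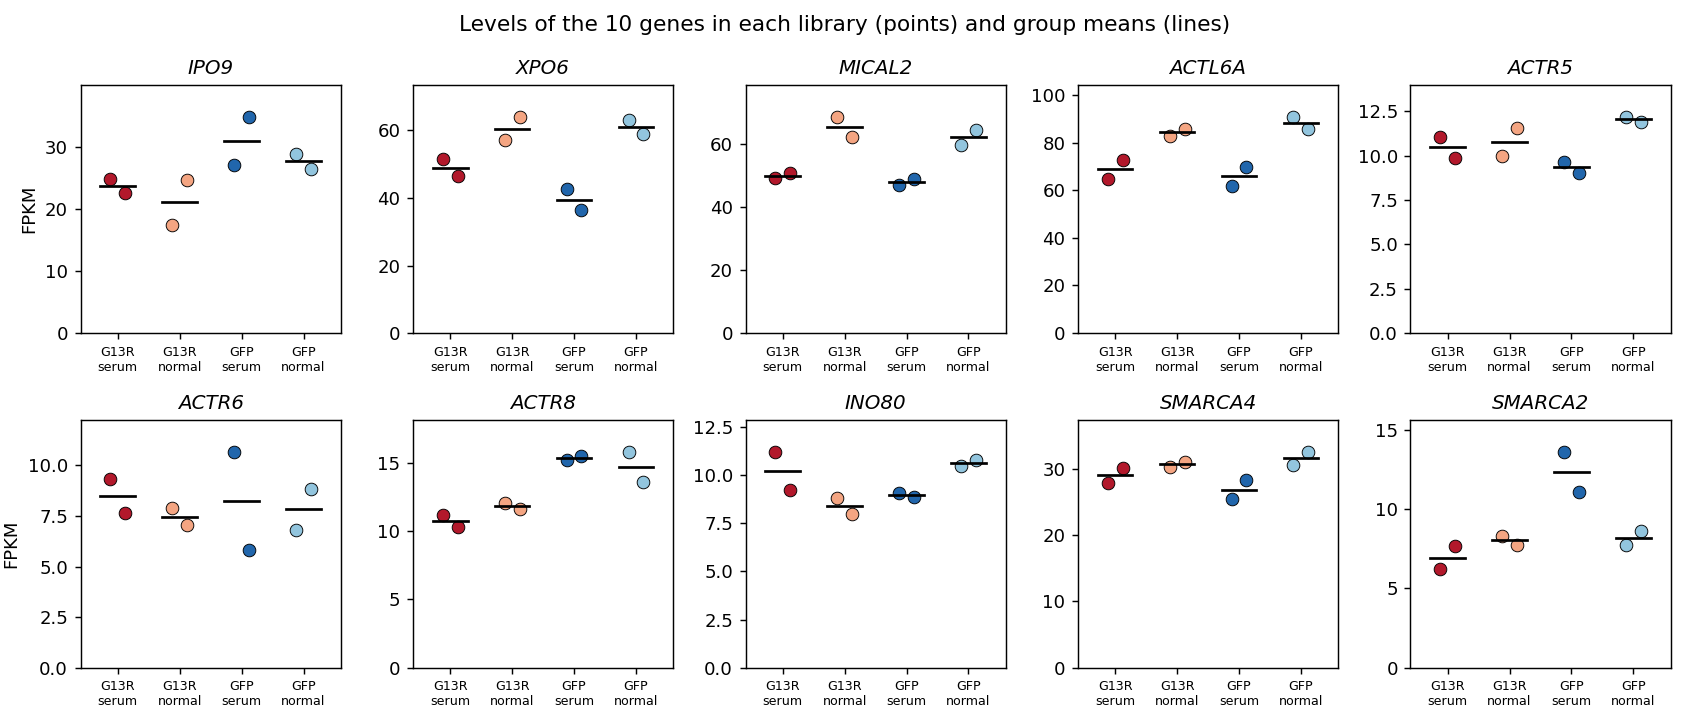
FPKM (y axis, from 0) of each of the 10 genes in the 8 libraries by group (x axis), with points for libraries and lines for group means. All serum libraries of XPO6, MICAL2, ACTL6A and, narrowly, SMARCA4 lie below all normal libraries of the same gene. SMARCA2 stands out in the GFP serum libraries at 13.6 and 11.1 FPKM.

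The serum comparisons set serum libraries against normal-growth libraries of the same kind of cell. As the labels name no starvation before serum, its part in these differences was not tested. In GFP cells XPO6, ACTL6A and MICAL2 fell after serum and SMARCA2 rose, so that 4 of 10 genes were called (1 higher, 3 lower), against 30.7% of all expressed genes (14.9% higher, 15.7% lower). In G13R cells MICAL2 fell and no other of the 10 genes was called, 1 of 10 against 12.9% of all expressed genes (8.26% higher, 4.62% lower). Both shares were near those backgrounds, so these counts show nothing particular to the 10 genes. Without GFP serum replicate 2 the GFP calls were the same 4 genes, with log2 fold changes of -0.51 for XPO6, -0.39 for MICAL2, -0.50 for ACTL6A and 0.67 for SMARCA2, beside 19.4% of all genes called in that fit (8.56% higher, 10.8% lower). The share of the 10 genes was then above the background, and that difference was not tested. The median log2 fold change of the 10 genes was -0.10 in G13R cells and -0.23 in GFP cells, beside 0.04 and 0.01 for all expressed genes. The libraries of the serum and normal groups did not overlap for 7 of 10 genes in G13R cells, 1 higher and 6 lower, beside 60.7% of all genes (34.3% higher, 26.4% lower). In GFP cells they did not overlap for 7 of 10 as well, 1 higher and 6 lower, beside 66.3% of all genes (33.3% higher, 33% lower).

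**Figure D2:**
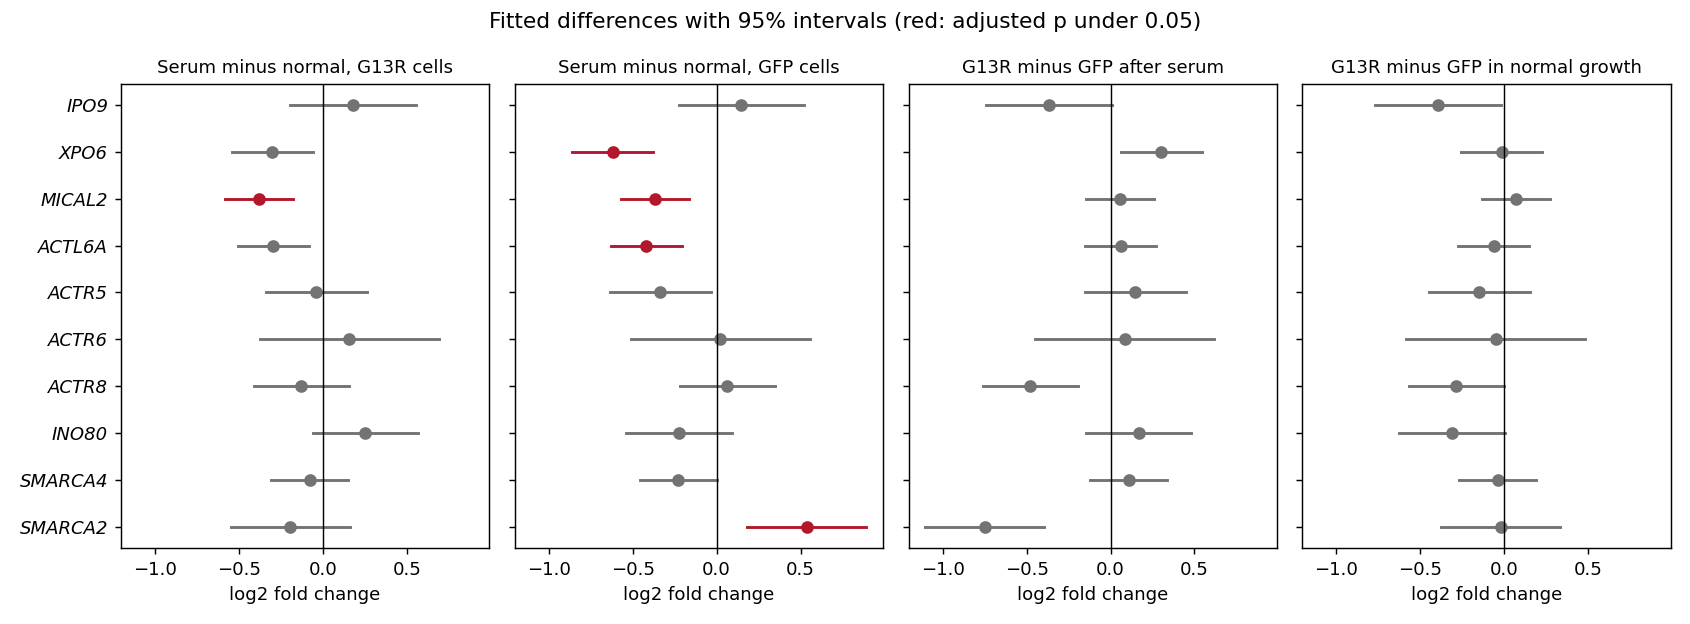
Log2 fold changes (x axis) of the 10 genes (rows) with unadjusted 95% intervals, for serum against normal growth in G13R and in GFP cells and for G13R against GFP cells after serum and in normal growth. Red marks an adjusted p under 0.05: MICAL2 in G13R cells, and XPO6, MICAL2, ACTL6A and SMARCA2 in GFP cells.

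The export receptor gene XPO6 (chromosome 16, 28109300 to 28223241, hg19) had 51.4 and 46.4 FPKM in G13R serum libraries, against 57.0 and 63.9 FPKM in G13R normal libraries. GFP serum libraries had 42.6 and 36.4 FPKM, against 63.1 and 59.1 FPKM in GFP normal libraries. All 4 serum libraries thus lay below all 4 normal libraries, and the GFP serum libraries were the lowest. The log2 fold change was -0.62 ± 0.11 in GFP cells (adjusted p = 0.00254), a call that held in all 16 other settings tried. In G13R cells it was -0.30 ± 0.11 and did not pass (adjusted p = 0.0997). The 2 responses differed by 0.32, with a 95% interval of -0.02 to 0.66 (adjusted p = 0.448), so a weaker response in G13R cells was not shown. In bulk RNA such as this, fewer cells expressing a gene and less RNA per cell cannot be told apart.

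The import receptor gene IPO9 (chromosome 1, 201798269 to 201853422) had 24.7 and 22.5 FPKM in G13R serum libraries, against 17.4 and 24.7 FPKM in G13R normal libraries. Its values were 27.1 and 34.7 FPKM in GFP serum libraries, against 28.8 and 26.4 FPKM in GFP normal libraries. Serum and normal libraries overlapped in both kinds of cell (log2 fold changes 0.18 ± 0.17 and 0.15 ± 0.17, adjusted p = 0.516 in G13R and 0.535 in GFP cells). All 4 G13R libraries lay below all 4 GFP libraries, yet the differences between the cells did not pass: -0.37 ± 0.17 after serum (adjusted p = 0.248) and -0.40 ± 0.17 in normal growth (adjusted p = 0.300). The 2 G13R normal libraries differed by 1.42 times between themselves.

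The ratio of IPO9 to XPO6 within a library, formed after the values were seen, was 0.481 and 0.485 in G13R serum and 0.305 and 0.386 in G13R normal libraries. GFP serum libraries had ratios of 0.636 and 0.954, and GFP normal libraries of 0.456 and 0.448. It was higher after serum in both kinds of cell without overlap, and the 2 GFP serum libraries were far apart. With 2 libraries against 2, a two-sided exact permutation test cannot give a p below 0.333, so the ratio was not tested.

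**Figure D3:**
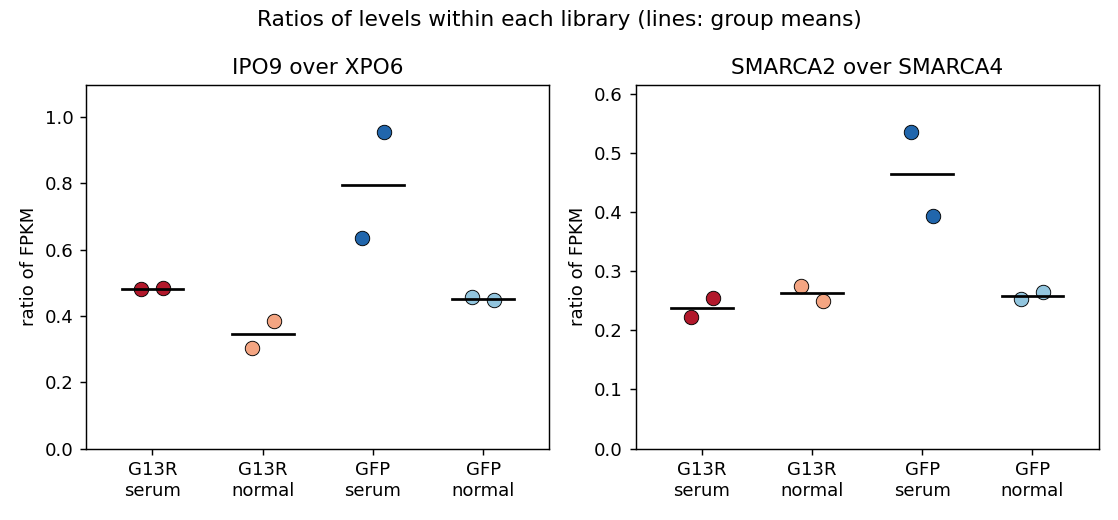
Ratio of FPKM within each library (y axis, from 0) for the importer over the exporter gene and for SMARCA2 over SMARCA4, by group (x axis), with points for libraries and lines for group means. GFP serum libraries are highest in both panels, at 0.636 and 0.954 for IPO9 over XPO6 and at 0.535 and 0.393 for SMARCA2 over SMARCA4.

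MICAL2 (chromosome 11, 12115543 to 12285334) fell after serum in both kinds of cell. It had 49.3 and 50.7 FPKM in G13R serum libraries, against 68.5 and 62.2 FPKM in G13R normal libraries, a log2 fold change of -0.38 ± 0.09 (adjusted p = 0.0245). In GFP cells it had 47.2 and 48.8 FPKM in serum libraries, against 59.7 and 64.6 FPKM in normal libraries (-0.36 ± 0.09, adjusted p = 0.0134). The serum libraries of both kinds of cell lay within 47.2 to 50.7 FPKM, and no normal library came below 59.7 FPKM. The 2 responses differed by -0.01, with a 95% interval of -0.30 to 0.27 (adjusted p = 0.980). The G13R call was lost when any of the 4 G13R libraries was left out, with adjusted p of 0.156 and 0.0578 without normal replicates 1 and 2 and 0.139 and 0.108 without serum replicates 1 and 2. The GFP call was lost without GFP normal replicate 2 (adjusted p = 0.0928) and under quantile normalization (adjusted p = 0.0821).

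The table also held MICALCL (chromosome 11, 12297627 to 12380691), whose row starts 12292 bases after the end of MICAL2 and whose symbol RefSeq's GRCh38.p14 annotation lists as a synonym of MICAL2. It had 13.8 and 11.3 FPKM in G13R serum libraries, against 20.9 and 26.6 FPKM in G13R normal libraries (-0.87 ± 0.16, adjusted p = 0.00768). GFP serum libraries had 4.87 and 5.85 FPKM, against 15.7 and 16.3 FPKM in GFP normal libraries (-1.42 ± 0.16, adjusted p = 2.59e-04). It therefore fell in both, and the 2 GFP serum libraries were the lowest of the 8. After serum it was higher in G13R than in GFP cells by 1.09 ± 0.16 (adjusted p = 0.0376), while MICAL2 itself had a difference of 0.06 ± 0.09 (adjusted p = 0.764). That MICALCL call held in 6 of 16 other settings, and its adjusted p ranged from 0.0093 to 0.349. It was lost without GFP serum replicate 2 (0.0762), either GFP normal library (0.0755 and 0.0734 without replicates 1 and 2) and each G13R library (0.349 and 0.145 without serum replicates 1 and 2, and 0.0520 and 0.0533 without normal replicates 1 and 2). The G13R serum call was lost without G13R normal replicate 2 (0.0663) and G13R serum replicate 2 (0.0756). The difference of the 2 responses did not pass (0.55 ± 0.22, adjusted p = 0.387).

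XPO6 and MICAL2 both fell after serum in GFP cells, so the sequences at their starts are shown, from RefSeq on GRCh38.p14 with 250 bases before and 50 bases from the start. A sequence was found for 9 of the 10 genes, all but ACTL6A. Capitals mark matches on either strand to CCGGAAG (the core bound by ETS factors), CACGTG (the E-box bound by MYC and MAX), CCATNTT (a core bound by YY1, itself an INO80 subunit), TATAAA (the TATA box), the GC box GGGCGG and, by name only, the CArG box bound by SRF. No matches of different motifs overlapped in these windows. XPO6 lies on the minus strand at chr16:28211916-28212215 and MICAL2 on the plus strand at chr11:12138140-12138439. The MICAL2 window starts from a position 27800 bases inside the RefSeq span of the gene, so it is only one of its possible starts. The ACTR8 window, searched but not shown, starts from a position 313 bases inside its span and lies wholly within it.
XPO6: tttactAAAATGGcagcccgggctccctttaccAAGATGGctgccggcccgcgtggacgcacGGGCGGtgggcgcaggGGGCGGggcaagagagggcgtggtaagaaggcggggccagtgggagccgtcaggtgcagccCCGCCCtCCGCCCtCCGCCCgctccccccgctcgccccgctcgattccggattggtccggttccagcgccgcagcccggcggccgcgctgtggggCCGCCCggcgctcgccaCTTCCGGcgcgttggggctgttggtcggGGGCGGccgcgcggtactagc
MICAL2: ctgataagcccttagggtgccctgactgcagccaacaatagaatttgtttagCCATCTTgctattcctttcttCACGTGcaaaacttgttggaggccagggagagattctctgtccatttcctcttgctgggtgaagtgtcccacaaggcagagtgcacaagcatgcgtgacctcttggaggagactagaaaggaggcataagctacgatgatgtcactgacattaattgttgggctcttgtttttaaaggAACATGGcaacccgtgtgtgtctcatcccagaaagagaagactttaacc
XPO6 holds CCATNTT at 2 places, as does MICAL2, and of the 9 genes ACTR5 is the other with a match, against 15.6% of 34796 RefSeq promoters of the same length. XPO6 is GC-rich (75%) with 7 GC boxes, whereas MICAL2 (47% GC) has no match to GGGCGG and is the only one of the 9 with CACGTG, found in 7.20% of all promoters. No CArG box (1.30% of all promoters) or TATAAA (11.6%) was present in any of the 9 windows.

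ACTL6A (chromosome 3, 179280668 to 179306196), which encodes the actin-related subunit BAF53A shared by the BAF, INO80 and TIP60 complexes, fell after serum in GFP cells. It had 64.6 and 72.8 FPKM in G13R serum libraries, against 82.9 and 85.8 FPKM in G13R normal libraries. The GFP serum libraries had 61.9 and 69.8 FPKM, against 90.6 and 85.9 FPKM in the GFP normal libraries. Serum libraries were below normal ones in both kinds of cell, and after serum the G13R and GFP libraries overlapped. The log2 fold change was -0.42 ± 0.10 in GFP cells (adjusted p = 0.00876; 0.0669 without GFP normal replicate 1). In G13R cells it was -0.29 ± 0.10 (adjusted p = 0.0701), which passed without GFP serum replicate 1 (0.0376) or 2 (0.0380), under median-ratio scaling (0.0310) and with only the compared libraries (0.0476). The difference of the responses was 0.13, with a 95% interval of -0.17 to 0.43 (adjusted p = 0.753).

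The actin-related proteins that are found in 1 kind of complex each showed no called change. ACTR5 (chromosome 20, 37377085 to 37400834), an INO80 subunit, had 11.04 and 9.90 FPKM in G13R serum and 9.997 and 11.6 FPKM in G13R normal libraries, and 9.65 and 9.04 FPKM in GFP serum and 12.2 and 11.9 FPKM in GFP normal libraries. Its GFP serum libraries lay below the normal ones (-0.34 ± 0.13, adjusted p = 0.0854; 0.0473 under quantile normalization), and its G13R groups overlapped. ACTR8 (chromosome 3, 53901093 to 53916229), the other INO80-specific one, had 11.2 and 10.3 FPKM in G13R serum and 12.04 and 11.6 FPKM in G13R normal libraries, against 15.2 and 15.5 FPKM in GFP serum and 15.8 and 13.6 FPKM in GFP normal libraries. All 4 G13R libraries of ACTR8 were below all 4 GFP libraries, with log2 fold changes of -0.48 ± 0.13 after serum (adjusted p = 0.0881) and -0.29 ± 0.13 in normal growth (adjusted p = 0.323), and neither passed in any of the other settings. ACTR6 (chromosome 12, 100592900 to 100635643), a subunit of the SRCAP complex that deposits the histone variant H2A.Z, had 9.34 and 7.63 FPKM in G13R serum and 7.88 and 7.07 FPKM in G13R normal libraries. ACTR6 had 10.7 and 5.81 FPKM in GFP serum and 6.82 and 8.84 FPKM in GFP normal libraries. Its 2 GFP serum libraries differed by 1.83 times, the widest gap within a group among the 10 genes, and all neighbouring groups overlapped.

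INO80 (chromosome 15, 41271078 to 41408552), the ATPase of the complex of that name, had 11.2 and 9.24 FPKM in G13R serum libraries, against 8.78 and 7.97 FPKM in G13R normal libraries. In GFP cells it had 9.05 and 8.85 FPKM in serum libraries, against 10.4 and 10.8 FPKM in normal libraries. Serum libraries were thus above normal ones in G13R cells and below them in GFP cells, with neither response called (0.25 ± 0.14 and -0.22 ± 0.14, adjusted p = 0.260 in G13R and 0.258 in GFP cells). The difference of the responses was 0.48, with an unadjusted 95% interval of 0.03 to 0.92, and did not pass (adjusted p = 0.393).

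SMARCA4 and SMARCA2 encode BRG1 and BRM, which serve as alternative ATPases of BAF complexes. SMARCA2 (chromosome 9, 2015342 to 2193624) had 6.22 and 7.66 FPKM in G13R serum libraries, against 8.34 and 7.74 FPKM in G13R normal libraries. In GFP cells it had 13.6 and 11.1 FPKM in serum libraries, against 7.73 and 8.63 FPKM in normal libraries. The GFP serum libraries were above all others, and the G13R serum libraries were the lowest. SMARCA2 rose in GFP cells by 0.54 ± 0.16 (adjusted p = 0.0287) and had -0.19 ± 0.16 in G13R cells (adjusted p = 0.457). The GFP call was lost when GFP normal replicate 1 (0.149), GFP normal replicate 2 (0.0660) or GFP serum replicate 1 (0.126) was left out, and held when GFP serum replicate 2 was (0.0299). It was also lost without the filter on low values (0.0616), under quantile normalization (0.0661) and with only the compared libraries (0.0557).

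After serum SMARCA2 was at 6.94 ± 1.02 FPKM in G13R and 12.3 ± 1.77 FPKM in GFP cells, a log2 fold change of -0.75 ± 0.16, with 2.02% of all genes lower, that did not pass (adjusted p = 0.0569; 0.0448 with a filter at 5 FPKM). The difference of the responses was -0.73, with an unadjusted 95% interval of -1.23 to -0.23 (adjusted p = 0.295). SMARCA4 (chromosome 19, 11071598 to 11176071) had 27.9 and 30.1 FPKM in G13R serum and 30.3 and 31.0 FPKM in G13R normal libraries, and 25.4 and 28.2 FPKM in GFP serum and 30.6 and 32.5 FPKM in GFP normal libraries. Serum libraries of SMARCA4 were below normal ones in both, and neither response was called (-0.08 ± 0.10 and -0.23 ± 0.10, adjusted p = 0.656 in G13R and 0.119 in GFP cells). The ratio of SMARCA2 to SMARCA4, also formed after the values were seen and not tested, was 0.223 and 0.254 in G13R serum and 0.275 and 0.250 in G13R normal libraries. In GFP cells it was 0.535 and 0.393 in serum and 0.252 and 0.265 in normal libraries, so that 6 of the 8 libraries lay within 0.223 to 0.275.

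SMARCA2 had the widest range of group means of the 10 genes, so its start is shown as well, on the plus strand at chr9:2015097-2015396 of GRCh38.p14 with the same motifs in capitals.
SMARCA2: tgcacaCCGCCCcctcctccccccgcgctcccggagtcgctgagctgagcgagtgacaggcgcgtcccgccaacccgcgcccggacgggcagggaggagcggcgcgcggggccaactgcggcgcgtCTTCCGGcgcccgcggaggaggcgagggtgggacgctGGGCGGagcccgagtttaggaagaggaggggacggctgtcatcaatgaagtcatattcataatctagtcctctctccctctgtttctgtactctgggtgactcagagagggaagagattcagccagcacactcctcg
It holds 1 match to CCGGAAG, as do XPO6 and ACTR6 among the 9 genes (10.2% of all promoters), and 2 GC boxes. At least 1 GC box is present in 8 of the 9 genes and in 44.9% of all promoters. Those promoters were not limited to expressed genes, and their median GC share was 58.7%, against 66.7% for SMARCA2. The difference in GC boxes was not tested.

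The remaining comparisons set G13R against GFP libraries, in normal growth and after serum, and use the same libraries as the serum responses. No group overexpressed an actin without the substitution. A difference here therefore cannot be assigned to the substitution rather than to actin overexpression or to other differences between the lines or clones. Which of these applied was not tested. Of the 10 genes limma called 0 in normal growth, where it called 0.0462% of all genes (0.0385% higher, 0.00769% lower), and 0 after serum, where it called 0.823% (0.331% higher, 0.492% lower). The separate MICALCL row, described above, is not among the 10. At an unadjusted p under 0.05, 2 of the 10 passed in normal growth, beside 15.1% of all genes, and 3 after serum, beside 20.8%, so these counts too were near the background. Libraries did not overlap for 5 of 10 genes in normal growth, all lower in G13R cells, beside 48.7% of all genes (14.4% higher, 34.3% lower). After serum they did not overlap for 7 of 10, 4 higher and 3 lower, beside 51.9% of all genes (22.6% higher, 29.4% lower). XPO6 after serum had 0.30 ± 0.11 (adjusted p = 0.160), which passed without GFP serum replicate 1 (0.0438). In the difference of the responses, limma called 0 of the 10 genes and 0 of all genes. At an unadjusted p under 0.05, 2 of the 10 passed, INO80 and SMARCA2, beside 1533 of all genes (11.8%).

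Genes that work with these 10 were read from 10 lists of related genes, of which 106 were expressed. Of these, 6 rose and 10 fell after serum in G13R cells, and 9 rose and 26 fell in GFP cells. Together these were 15.1% of the 106 in G13R cells and 33.0% in GFP cells, near the 12.9% and 30.7% of all genes. The counts of falls below stand beside 4.62% of all genes that fell in G13R cells and 15.7% in GFP cells, or 10.8% in GFP cells without GFP serum replicate 2, and those of rises beside 8.26%, 14.9% and 8.56%. No list's count was tested against these shares. Among the nuclear transport genes every call was a fall. Of 10 other importin genes, 7 fell in GFP cells (median -0.38) and 3 in G13R cells (median -0.35), and none rose. TNPO2, a transportin gene, had 17.9 ± 5.12 FPKM in GFP serum and 37.8 ± 3.35 FPKM in GFP normal libraries (-1.07 ± 0.18), and IPO4 fell by 0.70 ± 0.15 on the log2 scale. Of 7 other exportin genes, 4 fell in GFP cells (median -0.47), among them XPO5 (-0.70 ± 0.14) and XPO4 (-0.60 ± 0.16), and 2 fell in G13R cells (median -0.33), XPO1 (-0.37 ± 0.09) and CSE1L (-0.33 ± 0.08). Of 7 Ran cycle genes, 4 fell in GFP cells (median -0.53) and 3 in G13R cells (median -0.27). RANBP1, which promotes release of cargo from exporters, had 289 ± 19.4 FPKM in G13R serum against 419 ± 25.4 FPKM in G13R normal libraries (-0.54 ± 0.08), and 296 ± 8.19 FPKM in GFP serum against 537 ± 16.7 FPKM in GFP normal libraries (-0.86 ± 0.08). RCC1, the nucleotide exchange factor of Ran, fell by 0.57 ± 0.10 in GFP cells. Without GFP serum replicate 2, 5 of the 10 importin, 2 of the 7 exportin and 4 of the 7 Ran cycle genes fell in GFP cells, and none of them rose. The cofilin and profilin genes CFL1, CFL2, PFN1 and PFN2, whose products accompany actin through the pores, had 0 calls by limma in either kind of cell, with 0 and 1 of the 4 at an unadjusted p under 0.05 in G13R and GFP cells, beside 29.3% and 42.4% of all genes.

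Of the names in that account, the calls of TNPO2, IPO4, XPO5, RCC1 and both calls of RANBP1 held in all 16 other settings. XPO4 was lost without GFP normal replicate 1 (0.0656) or 2 (0.0832) and GFP serum replicate 2 (0.0852). XPO1, CSE1L and the G13R calls of IPO5 (-0.40 ± 0.09) and IPO11 (-0.45 ± 0.13) were lost when any 1 of the 4 G13R libraries was left out, with adjusted p from 0.0660 to 0.209. For CSE1L and IPO11 the call was also lost without GFP normal replicate 1 (0.0505 and 0.0631) or 2 (0.0505 and 0.0628). RAN fell in G13R cells (-0.35 ± 0.07), a call lost without G13R normal replicate 2 (0.0871) and G13R serum replicates 1 (0.0962) and 2 (0.0880).

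Among the 9 other MICAL proteins and methionine sulfoxide reductases, which reverse the oxidation of methionine, 2 rose and 1 fell in G13R cells, and 2 rose and 2 fell in GFP cells. MICAL1, a cytoplasmic relative of MICAL2, had 14.1 ± 0.763 FPKM in G13R serum against 6.88 ± 0.960 FPKM in G13R normal libraries (0.94 ± 0.15), and 12.3 ± 1.11 FPKM in GFP serum against 5.10 ± 0.179 FPKM in GFP normal libraries (1.12 ± 0.15). With GFP serum replicate 2 left out, 1 of the 9 rose and 2 fell in GFP cells. MICAL1 thus rose in both kinds of cell while MICAL2 fell. Both calls of MICAL1 held in all 16 other settings, whereas those of MICAL2 did not. MICALCL is counted here by its own row, although RefSeq lists its symbol as a synonym of MICAL2. It was the only 1 of the 106 related genes called between G13R and GFP cells, after serum. That was 0.943% of the 106, near the 0.823% of all genes. In normal growth limma called 0, beside 0.0462% of all genes. At an unadjusted p under 0.05, 26 of the 106 passed there, beside 15.1% of all genes, and that difference was not tested.

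**Figure D4:**
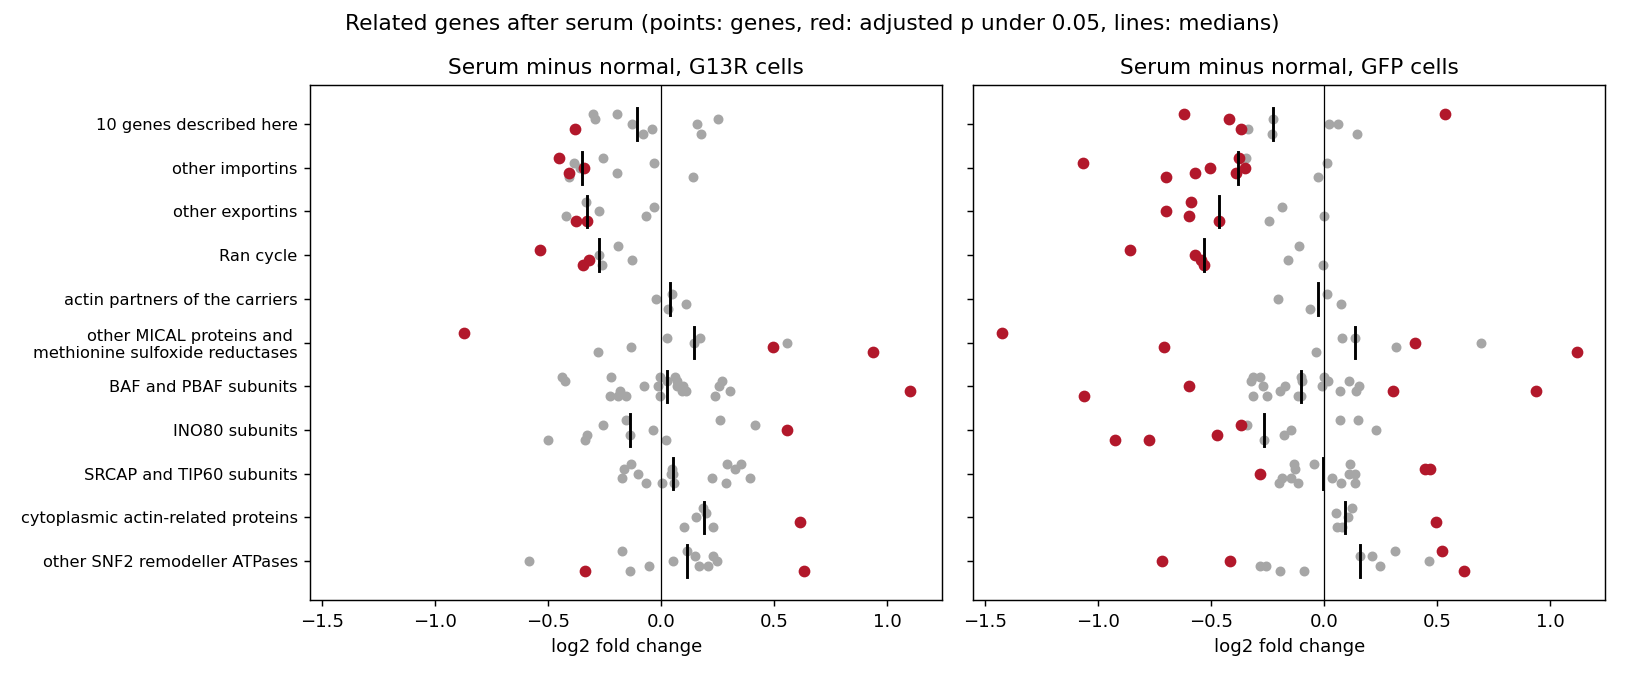
Log2 fold change after serum (x axis) of the genes in each list (rows) in G13R and in GFP cells, with red points for an adjusted p under 0.05 and black lines for medians. Importin, exportin and Ran cycle genes lie mostly below 0 in both panels, with medians from -0.53 to -0.27, and MICALCL and MICAL1 stand out on opposite sides.

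Of 23 other BAF and PBAF genes 1 rose in G13R cells, and 2 rose and 2 fell in GFP cells. PHF10, a PBAF subunit, had 45.6 ± 5.54 FPKM in G13R serum against 20.6 ± 1.30 FPKM in G13R normal libraries (1.10 ± 0.13), and 47.7 ± 6.67 FPKM in GFP serum against 24.3 ± 0.723 FPKM in GFP normal libraries (0.94 ± 0.13). DPF3, a reader of histone marks in BAF, fell in GFP cells (-1.06 ± 0.20), and these 3 calls held in all 16 other settings. Leaving out GFP serum replicate 2 gave 1 rise and 2 falls among the 23 in GFP cells. Of 11 other INO80 genes 4 fell in GFP cells, among them the AAA+ ATPase gene RUVBL1 (-0.78 ± 0.13) and the deubiquitinase gene UCHL5 (-0.92 ± 0.19; adjusted p = 0.0568 without GFP normal replicate 1). Of the 11, 5 fell without GFP serum replicate 2. In G13R cells 1 of the 11 rose, INO80B (0.56 ± 0.12), a call lost without G13R normal replicates 1 (0.0829) or 2 (0.0694) and G13R serum replicate 2 (0.113).

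Of 16 SRCAP and TIP60 genes limma called 0 in G13R cells, with 5 at an unadjusted p under 0.05, beside 29.3% of all genes. In GFP cells 1 of the 16 fell and 2 rose. The 2 were EPC1 (0.47 ± 0.12), lost without GFP normal replicate 1 (0.0700) or 2 (0.0686) and GFP serum replicate 2 (0.0847), and BRD8 (0.45 ± 0.15), lost in 8 of 16 other settings. These included leaving out either GFP normal library (0.123 and 0.141 for replicates 1 and 2), GFP serum replicate 2 (0.243) and either G13R serum library (0.0617 and 0.0624). Limma called 0 of the 16 in GFP cells without that serum library. Of 6 cytoplasmic actin-related protein genes ACTR1B, which encodes a dynactin subunit, rose in G13R cells (0.61 ± 0.14) and in GFP cells (0.50 ± 0.14). The G13R call was lost without any 1 of the 4 G13R libraries (0.0553 to 0.129), and the GFP call without GFP normal replicate 1 (0.136) and GFP serum replicate 2 (0.120). Of 13 other SNF2 ATPase genes 1 rose and 1 fell in G13R cells, and 2 rose and 2 fell in GFP cells. Without GFP serum replicate 2, 1 of the 13 rose and 0 fell in GFP cells. SMARCA1 rose in both (0.63 ± 0.19 in G13R and 0.62 ± 0.19 in GFP cells), CHD4 fell in G13R cells (-0.34 ± 0.09) and CHD7 in GFP cells (-0.72 ± 0.22). In G13R cells SMARCA1 passed narrowly (limma adjusted p = 0.0499) and was lost in 11 of 16 other settings, and CHD4 in 9. In GFP cells SMARCA1 was lost in 6 of 16 and CHD7 in 5. Each of these calls was lost without the filter on low values. The SMARCA1 call in G13R cells and the CHD4 call were lost without any 1 of the 4 G13R libraries or either GFP normal library, with adjusted p from 0.0605 to 0.250 for SMARCA1 and from 0.0594 to 0.249 for CHD4. The calls in GFP cells were lost without GFP normal replicates 1 and 2 and GFP serum replicate 2, with 0.0514, 0.162 and 0.177 for SMARCA1 and 0.0905, 0.126 and 0.125 for CHD7.

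For the 3 genes with the widest range of group means, the expressed genes with the most similar profile over the 8 libraries were found by the root-mean-square difference of centred log2(FPKM + 1) values. For SMARCA2 they were PAPOLG (0.119), ACAP2 (0.133) and MMD (0.137), on the log2 scale, where SMARCA2 itself had an SD of 0.297 over the libraries. For XPO6 they were PLEKHB2 (0.0329), RPUSD4 (0.0411) and MTHFD2 (0.0412), with an SD of 0.266 for XPO6. For IPO9 they were KAT5 (0.0587), ATP5E (0.0777) and PRCP (0.0836), with an SD of 0.259 for IPO9. KAT5, the acetyltransferase gene of the TIP60 complex, had 33.4 and 29.8 FPKM in G13R serum and 23.0 and 31.3 FPKM in G13R normal libraries, and 33.7 and 42.4 FPKM in GFP serum and 36.8 and 37.0 FPKM in GFP normal libraries. As with IPO9, its lowest library was G13R normal replicate 1 and its highest GFP serum replicate 2. The choice of KAT5 by its profile over these same libraries makes such a likeness probable.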

How the data were processed

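The authors deposited 1 table of FPKM values for 22504 genes in 8 libraries. TopHat2 2.0.13, Cufflinks 2.2.1, the human build hg19 and a fly build are named, per the submitters' processing notes, while annotation and strand setting are not given in the sources used here. Every column name matched 1 library, taking C to stand for normal growth. Starts in the table count from 0, judged from 159 short olfactory receptor genes, 77.4% of which spanned a multiple of 3 bases on that reading. They were moved by 1, so the hg19 gene spans given are 1-based. Whole reads could not be recovered from the FPKM: among genes under 0.25 FPKM, at most 16.6% of ratios between libraries lay within 1% of the commonest. Depth is therefore unknown and no count model was run. Overlapping genes may share reads.

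The fit was limma 3.58.1 (R 4.3.3) on log2 of FPKM plus a pseudocount of 1, with 1 mean per group, all 8 libraries (4 residual degrees of freedom) and an intensity trend. It took the 12996 genes that reached 1 FPKM in 2 or more libraries. Fold changes on this scale understate those of low genes. The fit was also run on simulated data with independent noise, few changed genes and no library apart, which does not test the calls made here. The 10 genes and all lists were chosen with earlier results of these data known. All 10 were named, with up to 2 called genes of largest change per related list and comparison, ACTB, and the 3 most similar genes for each of the 3 with the widest range. MICAL2's neighbouring row MICALCL was described library by library because of its annotation. As alternatives, the pseudocount was 0.1, the filter was dropped or set at 5 FPKM, libraries were rescaled by median ratios or quantiles, the fit was limited to the libraries compared or had no trend, the replicate number was a block, and each library was left out in turn. Promoters came from RefSeq (GRCh38.p14). Of 109 listed related genes, 108 were found in the table.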

Additional observations from a re-analysis of the deposited data

How the results depend on the processing

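Across the 16 other settings no called change of the 10 genes changed sign. Of 702 values not called in either setting, 38 had the other sign. Where uncalled values are described above, the side given is that of the deposited FPKM of the libraries, and no rise or fall is claimed. The calls among the 10 genes in G13R cells after serum, 1 in all, were 2 under median-ratio scaling and with only the compared libraries, 0 without the trend, and 0 to 2 when single libraries were left out. In GFP cells they were 2 to 4 when single libraries were left out, against 4. For G13R against GFP after serum they were 1 with a filter at 5 FPKM and 0 to 1 when single libraries were left out.

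Over all genes, the serum response in G13R cells had 1675 calls, 932 without the filter, 1071 without the trend and 413 to 2366 when single libraries were left out. That in GFP cells had 3985, and 2155 to 4263 when single libraries were left out. G13R against GFP in normal growth had 6, 14 with a filter at 5 FPKM or with only the compared libraries, 12 under quantile normalization and 4 to 109 when single libraries were left out. After serum there were 107, 263 with a filter at 5 FPKM, 4 without the filter, 180 under quantile normalization, 6 without the trend or with only the compared libraries, and 5 to 1620 when single libraries were left out. The difference of the responses had 0, 1 with a pseudocount of 0.1, 2 under quantile normalization and 0 to 486 when single libraries were left out. The cause of these changes was not tested.

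The deviations of same-numbered libraries correlated by 0.0169 to 0.121 across genes, weakly and always positively. The labels do not say whether the replicate numbers pair the libraries, and these correlations do not settle it. With the replicate number as a block, 83 genes were called between the cells in normal growth and 403 after serum, where 1 of the 10 genes passed, SMARCA2 (adjusted p = 0.0496).

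The order of the 4 group means was kept for 7 of 10 genes under median-ratio scaling and for 4 under quantile normalization, and 17 of 80 recomputed means moved by more than 1 SD. With 2 libraries per group and unknown depth, small differences could not be resolved. Leaving out 1 library left its group with 1, assumed to vary like the rest.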
